A study of Mus musculus with 15 samples.

Results

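The cytosolic ribosomal protein genes were followed through early innate lymphoid cell (ILC) development in mouse bone marrow. They were chosen by symbol alone: every row of the deposited table named Rpl or Rps with a number and at most 1 letter from a, x and y, together with Rplp0 to Rplp2 and Rpsa. This gave 76 of the 12798 genes in the table, 30 for proteins of the small (40S) subunit and 46 for proteins of the large (60S) subunit. All 76 passed the filter on low values, with 12572 genes tested in all. Mitochondrial ribosomal proteins (Mrpl, Mrps) do not match the pattern, and neither do the cytosolic genes Rps3a1 and Fau, whose symbols are irregular and which are given beside the members.

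The study profiled progenitors by bulk RNA-seq in 15 libraries of total RNA, sorted by flow cytometry from mice of the C57BL/6 background. ALP_WT (n = 3), the all-lymphoid progenitor, came from Tcf7EGFP/+ reporter mice and was gated as Lin- Kit+ 2B4+ cells without a4b7, with high Flt3 and with IL-7Ra. EILP_KO (n = 2), the Tcf7-null early ILC progenitor, had the genotype Tcf7EGFPnull/- and was gated as Lin- Kit+ 2B4+ a4b7+ cells, positive for the Tcf7 reporter and negative for Thy1. EILP_WT (n = 3) had the same gate in Tcf7EGFPnull/+ mice, so these control cells carried 1 null allele as well. sEILP_WT (n = 2, Zbtb16low Flt3high) and cEILP_WT (n = 3, Zbtb16high Flt3low) split the early progenitor in mice with both a Tcf7GFP and a Zbtb16GFP reporter. ILCP_WT (n = 2), the later ILC progenitor, came from Tcf7EGFP/+ mice and was gated as Thy1+ IL-7Ra+. Reporter alleles and stage therefore cannot be told apart where any of the early progenitor groups is set against ALP_WT or ILCP_WT. Nothing in the labels ties a replicate to an animal of its own, and the p-values cover the spread between these libraries, which may be technical.

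Values are log2 expression values as deposited, scaled to about 1e6 per library and quantile-normalized, and the files do not say whether they are per transcript length, so no gene is ranked against another by level. A difference is the limma estimate on that scale with its standard error (SE), and a gene is called changed at a Benjamini-Hochberg adjusted p under 0.05 over all tested genes. The values are relative to the rest of each library's RNA. In bulk samples, a lower value in every cell and fewer cells with a high value cannot be told apart. Sequencing depth is unknown, since the values are not counts. The targeted gene followed the labels: Tcf7 (chromosome 11, 52252371 to 52283014, minus strand, GRCm38) averaged 7.31 ± 0.48 in EILP_KO (SD, n = 2) and 10.61 ± 0.65 in EILP_WT (SD, n = 3), and 2.36 ± 0.39 in ALP_WT (SD, n = 3). The EILP_WT 3 library stood apart with 2575 genes at its lowest value, against 747 to 2224 in the others.

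As background, each cytosolic ribosome holds a single copy of nearly every one of these proteins, bound to ribosomal RNA, and the acidic stalk proteins are the known exception. Cells make the proteins in matched amounts, and excess unassembled protein is degraded. The mRNAs of most vertebrate ribosomal protein genes begin with a C followed by a run of pyrimidines, the 5' terminal oligopyrimidine (TOP) tract, through which mTOR signalling and Larp1 set their translation and stability. Myc proteins and RNA polymerases I and III are widely described as raising ribosome production in growing and dividing cells.

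Start regions are shown for 5 of the 8 members called lower in ILCP_WT against EILP_WT, and not for Rpl3, Rpl17 and Rps27a. They are shown because the TOP tract is the feature by which these mRNAs are recognised. Where a gene had several annotated starts, the region with the longest pyrimidine run was chosen. Each runs 5' to 3' on the gene's own strand, from 80 bases before to 20 bases after the start annotated in RefSeq on GRCm38.p6. Capitals mark the longest run of C and T that begins with C, has at least 5 bases and begins within 25 bases of that start, and a sequence without capitals has none.
Rps6, chr4:86857348-86857447, minus strand: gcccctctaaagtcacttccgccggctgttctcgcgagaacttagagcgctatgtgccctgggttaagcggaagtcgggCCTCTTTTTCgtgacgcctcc
Rpl35a, chr16:33056402-33056501, plus strand: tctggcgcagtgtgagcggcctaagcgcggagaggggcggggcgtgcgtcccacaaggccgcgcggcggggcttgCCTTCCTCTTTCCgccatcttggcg
Rps25, chr9:44407634-44407733, plus strand: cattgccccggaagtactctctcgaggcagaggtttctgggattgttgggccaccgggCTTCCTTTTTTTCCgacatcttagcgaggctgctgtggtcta
Rpl4, chr9:64173307-64173406, plus strand: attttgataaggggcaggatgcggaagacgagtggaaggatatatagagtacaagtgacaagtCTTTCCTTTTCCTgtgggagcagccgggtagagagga
Rps4x, chrX:102189372-102189471, minus strand: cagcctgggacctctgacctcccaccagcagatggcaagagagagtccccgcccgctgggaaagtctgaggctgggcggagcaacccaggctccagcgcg

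The pyrimidine run spans the annotated start in Rps6 and Rpl35a and lies upstream of it in Rps25 and Rpl4, where the RefSeq start lies downstream of the run. RefSeq windows of 300 bases (250 before to 50 after the start) were given for 56 of the 76 members, 66 windows in all. A C followed by at least 4 further pyrimidines began between 5 bases before and 5 bases after the start in 43.9% of the members' windows, against 18.3% of all 32851 windows of that length. Within 25 bases of the start the shares were 77.3% of members' windows and 53.0% of all windows. Of other promoter motifs searched on both strands, CCGGAAG, the core bound by ETS family factors such as Gabpa, was in 36.4% of members' windows and 8.86% of all windows. CTCGCGAG was in 12.1% and 0.919%, AAGATGGC, the YY1 core, in 10.6% and 2.75%, and GGGCGG in 60.6% and 35.7%. TATAAA was in 9.09% of members' windows and 13.6% of all windows. None of these letter strings contains another, and a match describes letters only.

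Across the 15 libraries, the members moved together and stood lowest in ILCP_WT. Their share of the library (the summed antilog values) came to 2.49%, 3.06% and 2.81% for ALP_WT, 2.37% and 2.46% in EILP_KO, 2.46%, 1.96% and 2.47% in EILP_WT, 2.34% and 2.37% for sEILP_WT, 2.46%, 2.5% and 1.91% in cEILP_WT. It was 1.59% and 1.60% in ILCP_WT. Both ILCP_WT libraries lay below every other library. ALP_WT had the highest group mean for 60 of the 76 members and ILCP_WT the lowest for 74. EILP_WT 2 and cEILP_WT 3 were lower than the other libraries of their groups, with member medians of 7.49 and 7.35 on the log2 scale, and results that rest on them are given with and without them.

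**Figure D1:**
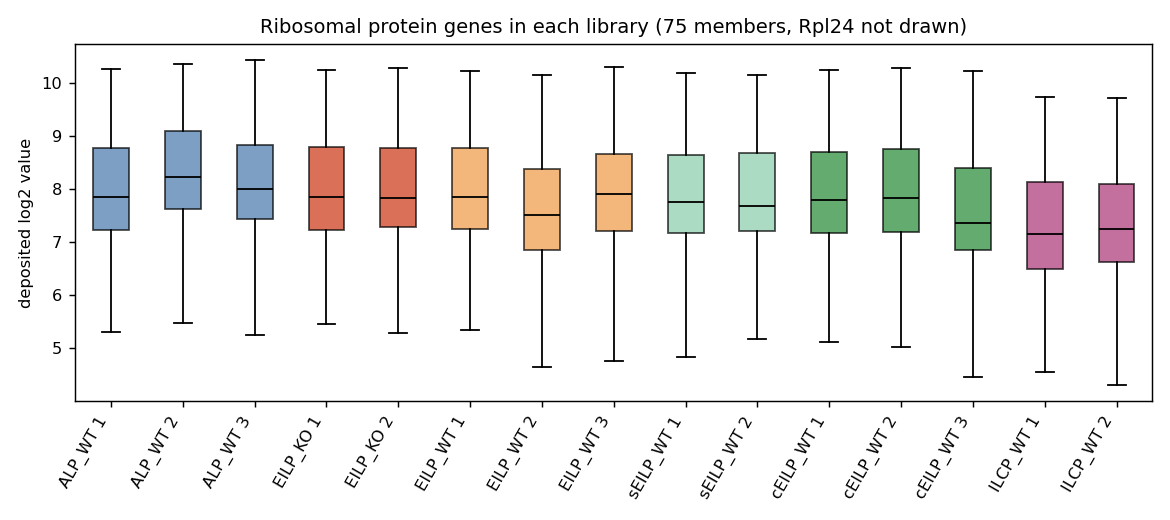
Deposited log2 values (y axis) of 75 ribosomal protein genes in each of the 15 libraries (x axis, coloured by group); boxes show the quartiles with the median as a line, and whiskers the lowest and highest member. Rpl24 is not drawn. The 2 ILCP_WT medians, 7.15 and 7.23 over all 76 members, lie below those of all other libraries, which run from 7.35 to 8.20.

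The clearest difference was between the ends of the series. In ILCP_WT against ALP_WT, 52 of the 76 members were lower and 0 were higher by limma, and the median estimate was -0.83 (1.78-fold lower), against a median of -0.087 over all tested genes. The 52 are 68.4% of members, beside a background of 7.86% of tested genes called lower and 5.56% called higher. The median SE was 0.21 over members and 0.68 over all tested genes. Here and in the other comparisons, the shares therefore set members beside genes measured with less precision. Of the 30 members of the 40S subunit 23 fell, with a median of -0.93 over all 30, and of the 46 members of the 60S subunit 29 fell, with a median of -0.72 over all 46; the difference between subunits was not tested. For 73 members both ILCP_WT libraries lay below all 3 ALP_WT libraries (96.1% of members, background 21.4%), the exceptions being Rpl24, Rpl29 and Rpl38.

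The count depended on single libraries. It was 24 without ILCP_WT 1, 21 without ILCP_WT 2, 29 without ALP_WT 2, and 49 and 35 without ALP_WT 1 and ALP_WT 3. The median over members lay between -0.93 and -0.76 in these 5 fits, and 13 members were called in each, among them Rpl3, Rpl4, Rpl10, Rpl15, Rpl35a, Rps4x, Rps6, Rps19, Rps23, Rps25 and Rps27a. Within batch 1 (1 library against 1) the median over members was -0.69, and within batch 2 (1 against 2) it was -0.87. Each batch had 75 of 76 members below 0.

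**Figure D2:**
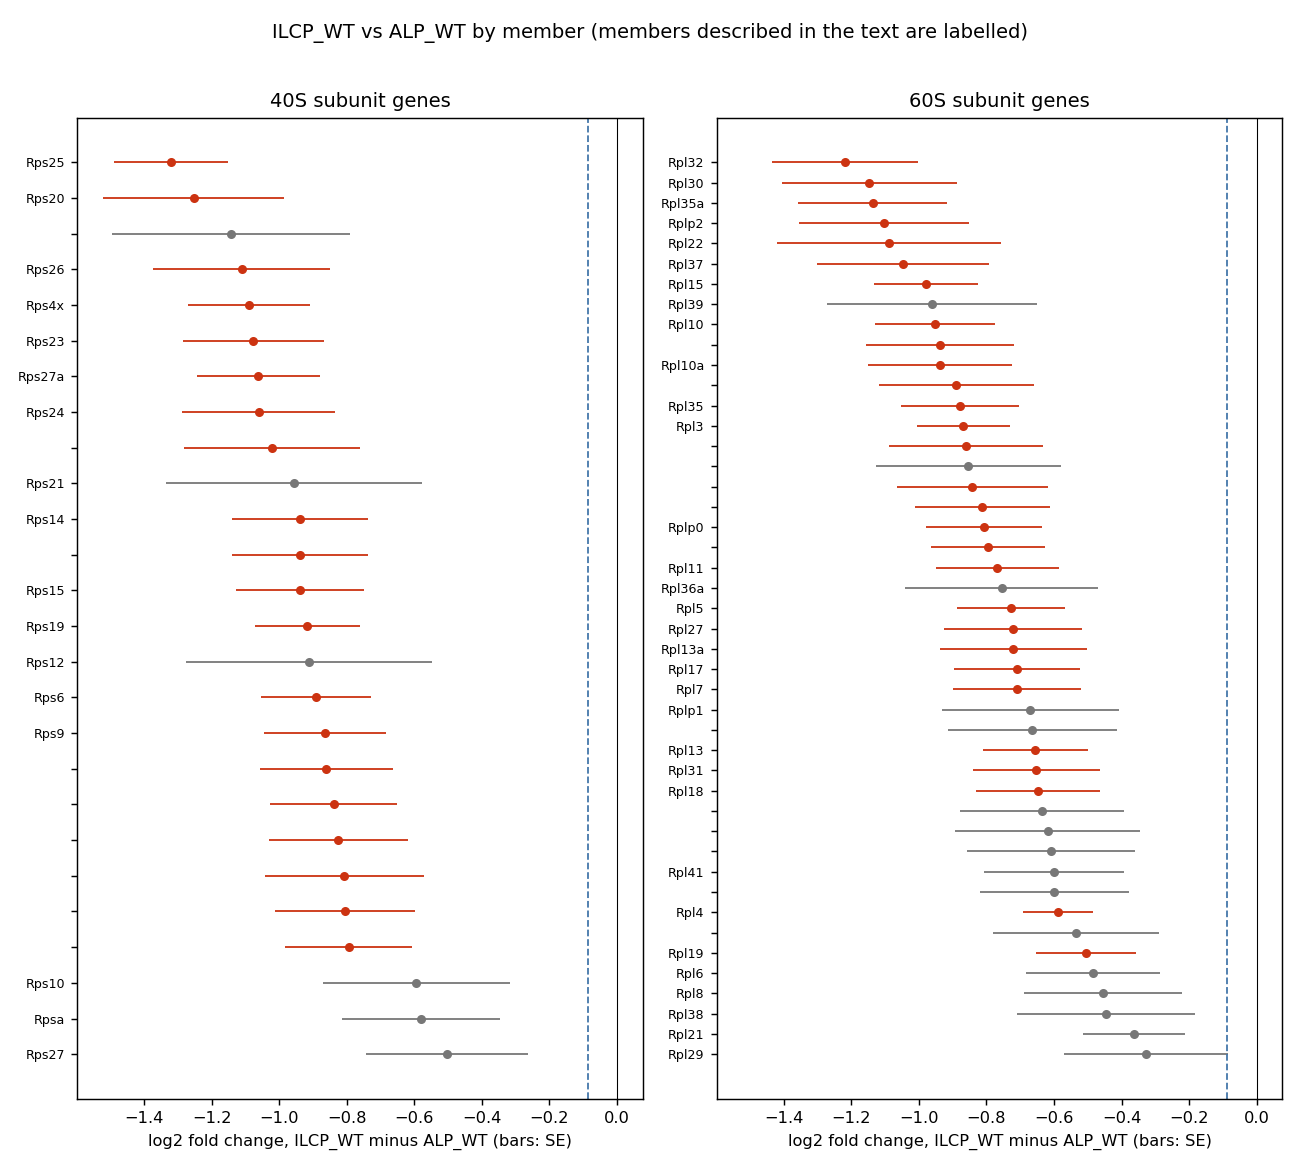
Limma log2 fold change of ILCP_WT minus ALP_WT (x axis; bars are the SE) for 71 members, with the 40S genes on the left and the 60S genes on the right; members described in the text are labelled, and Rpl24 and 4 members not reported here are not drawn. Red points have an adjusted p under 0.05, grey points do not, and the dashed line is the median of all tested genes at -0.087. All 71 points lie below 0, from -0.33 for Rpl29 to -1.32 for Rps25.

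Among the 40S genes, Rps25 fell most. It encodes eS25, a protein of the head of the small subunit that several viral and cellular internal ribosome entry sites need. Its log2 values were 8.65, 8.59 and 8.60 in ALP_WT, 8.22 and 8.28 in EILP_KO, 8.46, 7.92 and 8.08 in EILP_WT, 8.15 and 8.24 for sEILP_WT, 8.08, 8.16 and 7.96 in cEILP_WT, and 7.21 and 7.39 in ILCP_WT. The ALP_WT libraries were above and the ILCP_WT libraries below all others, with the early progenitors between them. The estimate for ILCP_WT against ALP_WT was -1.32 (SE 0.17, 2.5-fold, limma adjusted p = 0.00041). Rps25 (chromosome 9, 44407139 to 44410427, GRCm38) was the single member called under every alternative setting except the one that equalises the members' mean between libraries, where its adjusted p was 0.0617.

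Rps19 encodes a protein of the small subunit whose gene is mutated in human Diamond-Blackfan anaemia. It was 8.61 and 8.73 in ILCP_WT against 9.60, 9.62 and 9.55 in ALP_WT, an estimate of -0.92 (SE 0.16). Its ILCP_WT libraries did not overlap with any ALP_WT library. Rps20, for uS10 at the head of the subunit, was 6.86 and 6.61 in ILCP_WT against 7.71, 8.23 and 7.99 in ALP_WT, an estimate of -1.25 (SE 0.27).

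Rps4x, the X-linked gene for eS4, was 8.77, 9.28 and 9.22 in ALP_WT, 8.98 and 9.0 in EILP_KO, 8.80, 8.91 and 8.96 in EILP_WT, 8.98 and 9.09 for sEILP_WT, 8.88, 9.09 and 8.67 in cEILP_WT, and 8.13 and 7.86 in ILCP_WT. The 13 libraries of the other groups ran from 8.67 to 9.28, and both ILCP_WT libraries lay below them. The estimates for ILCP_WT were -0.90 against EILP_WT, -0.88 against cEILP_WT and -1.09 against ALP_WT (SE 0.18 each). Rps6, whose protein is the substrate of the S6 kinases downstream of mTOR, was 8.06 and 8.28 in ILCP_WT against 8.88, 9.21 and 9.10 in ALP_WT, an estimate of -0.89 (SE 0.16, limma adjusted p = 0.0039). Rps27a, which encodes eS31 fused to ubiquitin, was 7.15 and 7.22 in ILCP_WT against 8.08, 8.42 and 8.24 in ALP_WT, an estimate of -1.06 (SE 0.18).

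In the 60S subunit, Rpl32 had the largest fall. It was 8.27 and 7.97 in ILCP_WT against 9.08, 9.60 and 9.32 in ALP_WT, an estimate of -1.22 (SE 0.22, limma adjusted p = 0.0036). Rpl35a, another gene mutated in Diamond-Blackfan anaemia in human patients, was 5.78 and 6.24 in ILCP_WT against 6.94, 7.35 and 7.20 in ALP_WT, an estimate of -1.14 (SE 0.22). Rpl30 was split between the ILCP_WT libraries, at 5.65 and 6.66, against 7.22, 7.36 and 7.42 in ALP_WT, and its estimate was -1.15 (SE 0.26). Its ILCP_WT 2 library was close to EILP_WT 2, at 6.64.

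Rpl3 and Rpl4 belong to the core of the large subunit, Rpl3 near the peptidyl transferase centre and Rpl4 lining the exit tunnel. Rpl4 was 10.19, 10.23 and 10.35 in ALP_WT, 9.97 and 10.27 in EILP_KO, 10.21, 10.14 and 10.29 in EILP_WT, 10.18 and 10.13 for sEILP_WT, 10.24, 10.27 and 10.21 in cEILP_WT, and 9.60 and 9.70 in ILCP_WT. All 13 libraries before ILCP_WT lay within a narrow span, and ILCP_WT lay below it. The fall of Rpl4 was small, -0.59 against ALP_WT, but so was its SE of 0.10 (limma adjusted p = 0.0033). It was the single member called in every leave-one-out fit of all 3 ILCP_WT comparisons. Rpl3 was 9.31 and 9.18 in ILCP_WT against 10.01, 10.13 and 10.22 in ALP_WT, an estimate of -0.87 (SE 0.14).

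The stalk of the large subunit, which recruits elongation factors, is built from Rplp0, Rplp1 and Rplp2. Rplp0 (-0.81, SE 0.17) and Rplp2 (-1.10, SE 0.25) fell in ILCP_WT against ALP_WT, and Rplp1 had an estimate of -0.67 (SE 0.26) with an adjusted p of 0.12 by limma. Rpl5 and Rpl11 bind 5S ribosomal RNA and, outside the ribosome, Mdm2, the ubiquitin ligase of p53. Both fell, with estimates of -0.73 (SE 0.16) and -0.77 (SE 0.18). Rpl22, which mice need for alpha-beta T cell development, was 5.61 and 5.21 in ILCP_WT against 6.64, 6.64 and 6.24 in ALP_WT, an estimate of -1.09 (SE 0.33) just inside the threshold (limma adjusted p = 0.0497). Of the 3 other X-linked members, Rpl10 fell by 0.95 on the log2 scale (SE 0.18), and Rpl39 (-0.96, SE 0.31) and Rpl36a (-0.75, SE 0.29) were not called.

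**Figure D3:**
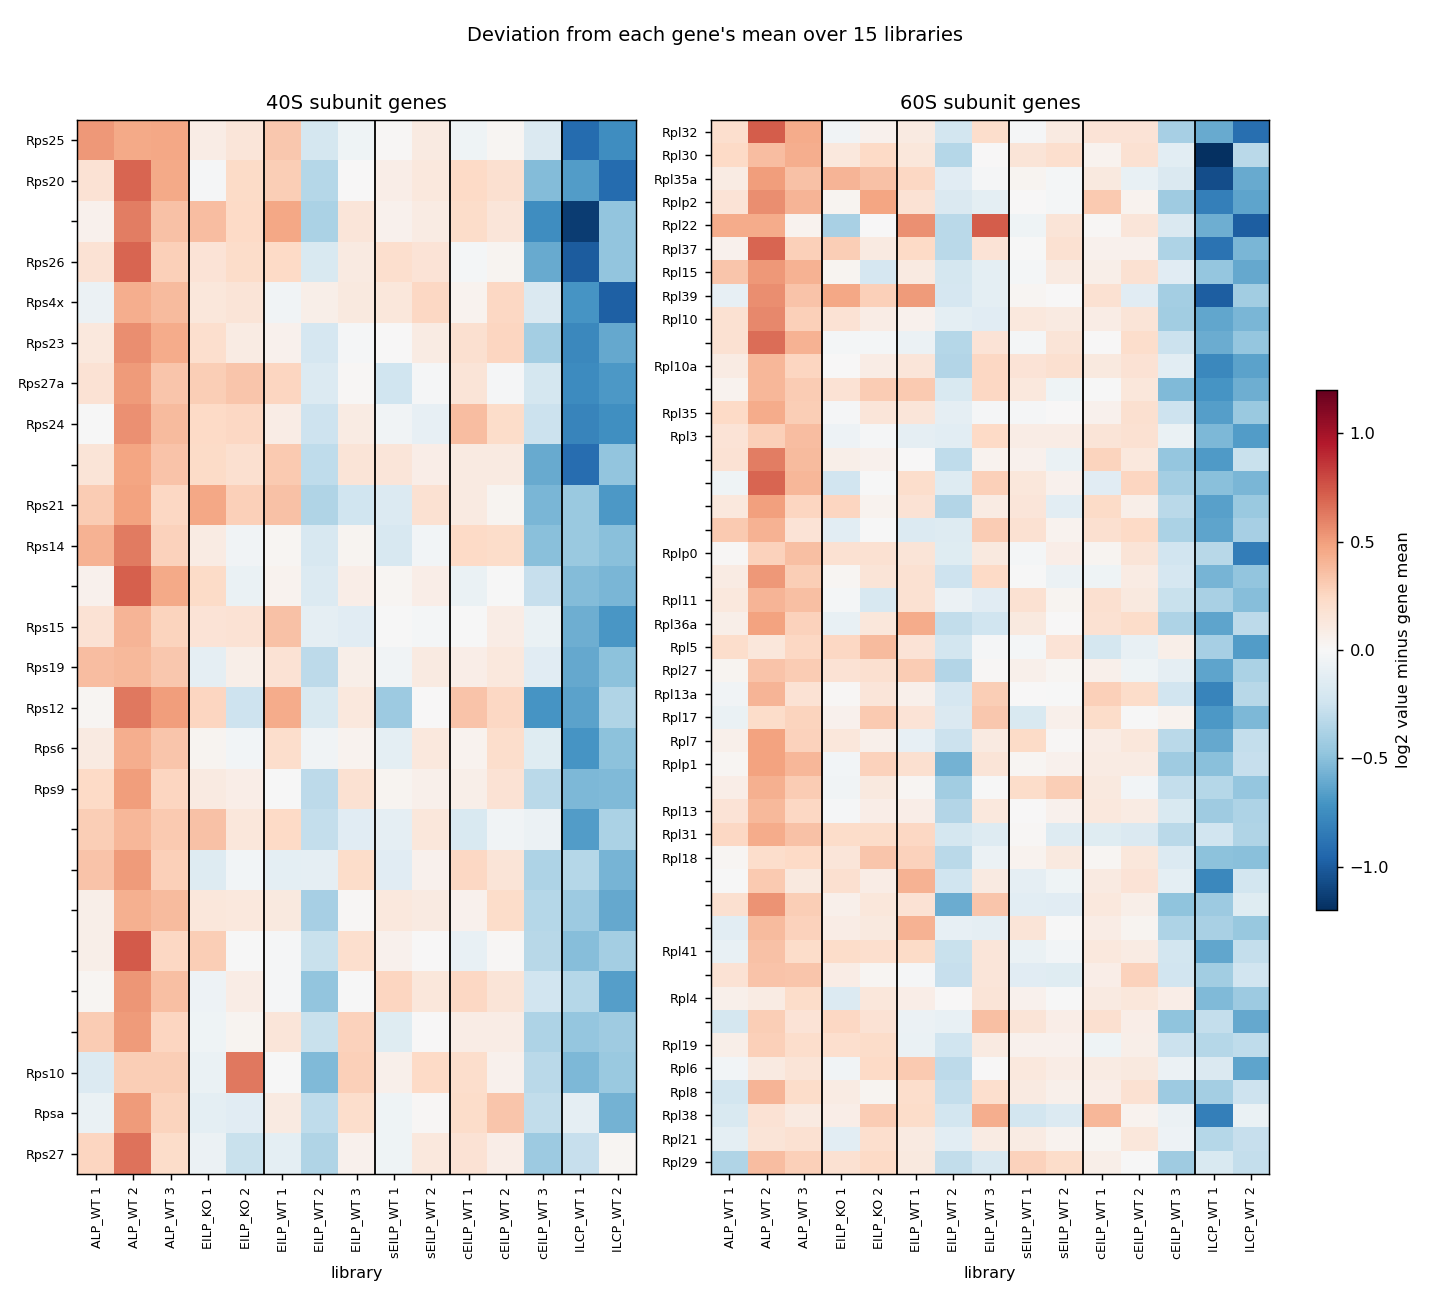
Deviation of each member's log2 value from its own mean over the 15 libraries (colour; red above, blue below), with libraries as columns in stage order, separated by group, and 71 genes as rows sorted by the ILCP_WT minus ALP_WT estimate within the 40S and 60S subunits. Members described in the text are labelled; Rpl24 and 4 members not reported here are not drawn. Nearly all rows are blue in the 2 ILCP_WT columns, and EILP_WT 2 and cEILP_WT 3 are paler blue columns within their groups.

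Against the early progenitors the median estimates were nearer 0 and fewer members passed the test. In ILCP_WT against EILP_WT, 8 of 76 members were lower by limma (10.5%, background 4.34% called lower and 2.61% called higher) and 0 were higher, with a median of -0.51, against -0.059 over all tested genes. The 8 were Rpl3, Rpl4, Rpl17, Rpl35a, Rps4x, Rps6, Rps25 and Rps27a. Estimates were below 0 for 74 members, and for 60 members (78.9%, background 17.5%) both ILCP_WT libraries lay below all 3 EILP_WT libraries. Rps4x fell by 0.90 (limma adjusted p = 0.011), Rps25 by 0.85 (adjusted p = 0.010) and Rpl4 by 0.58 (adjusted p = 0.0058). Rpl17, another protein at the exit tunnel, was 6.60 and 6.75 in ILCP_WT against 7.45, 7.11 and 7.61 in EILP_WT. Without EILP_WT 2 the count was 17. It was 4 without EILP_WT 1, without EILP_WT 3 or without ILCP_WT 1, and 5 without ILCP_WT 2. Within batches the medians were -0.52 in batch 1 (1 library against 2) and -0.59 in batch 2 (1 against 1).

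In ILCP_WT against cEILP_WT, 14 members were lower by limma (18.4%, background 4.72% called lower and 2.69% called higher) and 0 were higher, with a median of -0.51, against -0.068 over all tested genes. Among them were Rpl3, Rpl4, Rpl10a, Rpl15, Rpl17, Rpl35a, Rps4x, Rps6, Rps19, Rps24, Rps25 and Rps27a. The 3 ILCP_WT comparisons share the ILCP_WT libraries and are not independent. Estimates were below 0 for 75 members, and for 56 (73.7%, background 19.9%) both ILCP_WT libraries lay below all 3 cEILP_WT libraries. Rps24, for eS24, was 6.75 and 6.81 in ILCP_WT against 7.91, 7.76 and 7.28 in cEILP_WT, an estimate of -0.87 (SE 0.23, limma adjusted p = 0.038). Without cEILP_WT 3 the count was 25 and the median -0.72. It was 3 without cEILP_WT 1 or cEILP_WT 2, and 4 without ILCP_WT 1 or ILCP_WT 2. The median within batch 1 was -0.67 (1 library against 2). Within batch 2, where cEILP_WT 3 is the single cEILP_WT library, it was -0.19 with 61 of 76 members below 0. With EILP_WT 2 and cEILP_WT 3 both left out, an alternative chosen after seeing the data, 27 members were lower against EILP_WT and 23 against cEILP_WT.

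**Figure D4:**
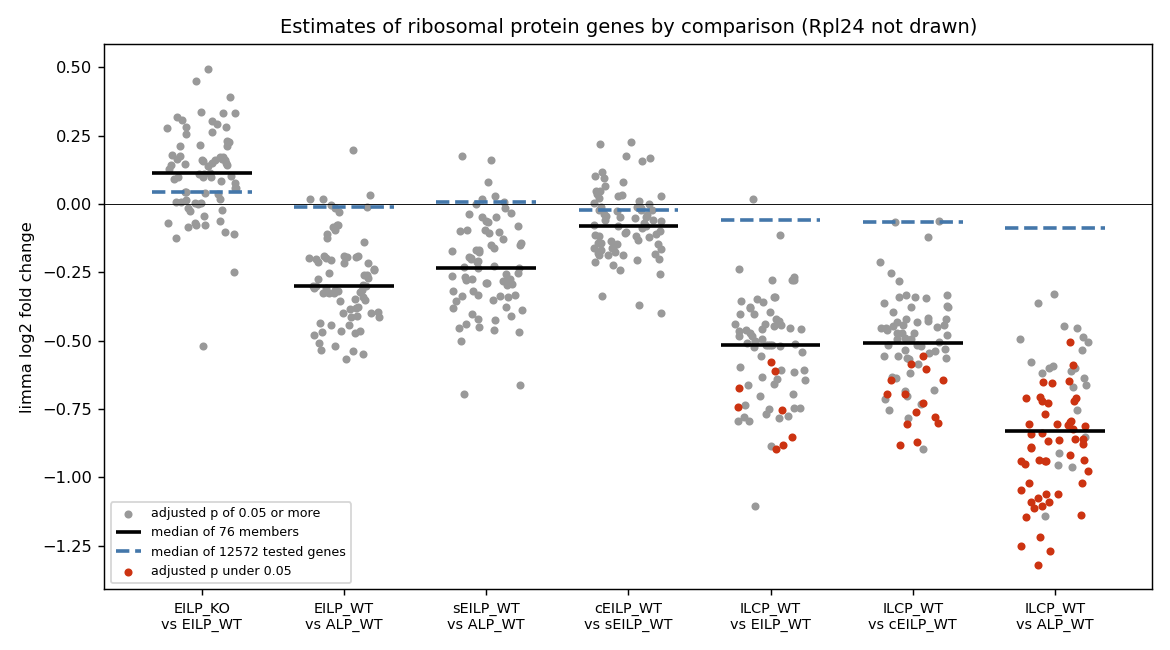
Limma log2 fold changes (y axis) of 75 members in each of the 7 comparisons (x axis, first-named group minus second); red points have an adjusted p under 0.05. Black lines are medians of the 76 members and dashed blue lines medians of the 12572 tested genes; Rpl24 is not drawn. Red points appear in the 3 ILCP_WT comparisons, which share the ILCP_WT libraries, with member medians of -0.51, -0.51 and -0.83.

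At the first step, from ALP_WT to the early progenitor, the members leaned lower without passing the test. In EILP_WT against ALP_WT, 0 members were called by limma (background 3.21%), the median was -0.30 against -0.0099 over all tested genes, and 71 of 76 estimates were below 0. At an unadjusted p under 0.05 there were 18 members (23.7%, background 16.5%), and for 21 members (27.6%, background 9.70%) every EILP_WT library lay below every ALP_WT library. Rpl15 had the lowest adjusted p, 0.065. Rps14, whose human gene lies in the region lost in 5q minus syndrome, was 8.62, 8.40 and 8.63 in EILP_WT against 9.01, 9.22 and 8.87 in ALP_WT, an estimate of -0.54 (SE 0.18). Without EILP_WT 1, 2 members were called. Without EILP_WT 2 the median was -0.178, and it ran from -0.428 to -0.178 when 1 library at a time was left out. Within batches it was -0.178 (2 libraries against 1) and -0.30 (1 against 2).

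In sEILP_WT against ALP_WT, 0 members were called by limma (background 0.803%), the median was -0.23 against 0.0079 over all tested genes, and 68 estimates were below 0. For 38 members (background 14.7%) both sEILP_WT libraries lay below all ALP_WT libraries, and 6 members (7.89%, background 9.13%) had an unadjusted p under 0.05. Rps12 had the lowest estimate, -0.70 (SE 0.39), and Rps14 was next with -0.66 (SE 0.22). All sEILP_WT libraries are in batch 1, where the median against the single ALP_WT library was -0.060. Over all libraries it was -0.156 without ALP_WT 2 and -0.416 without ALP_WT 1. The highest estimates apart from Rpl24 were 0.18 for Rps10 and 0.16 for Rpl29, which were not called.

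No difference was detected between the committed and the specified fraction. In cEILP_WT against sEILP_WT, 0 members were called by limma and 0 had an unadjusted p under 0.05, beside a background of 0% and 5.15% of tested genes. The median was -0.079, against -0.021 over all tested genes, and it was 0.054 within batch 1 and without cEILP_WT 3. The lowest estimate apart from Rpl24 was -0.40 for Rps26 (SE 0.27), and the highest were 0.23 for Rps12 (SE 0.37) and 0.22 for Rpl38 (SE 0.27).

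Loss of Tcf7 gave no called change in any member. In EILP_KO against EILP_WT, 0 of 76 were called by limma (background 0.103%) and 1 had an unadjusted p under 0.05 (background 8.70%). The median was 0.11, against 0.043 over all tested genes, and 59 estimates were above 0. For 14 members both EILP_KO libraries lay above all EILP_WT libraries (background 9.59%). The lowest estimate was -0.52 for Rpl22 (SE 0.33), at 5.81 and 6.20 in EILP_KO against 6.75, 5.87 and 6.92 in EILP_WT, and the highest was 0.49 for Rps21 (SE 0.38). Without EILP_WT 2 the median was -0.003. The median SE over members was 0.21, so changes of that size are not resolved with 2 libraries against 3.

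Over all 6 groups, the F test of limma called 12 members (background 8.36%), among them Rpl3, Rpl4, Rpl15, Rpl32, Rpl35a, Rps4x, Rps6, Rps19, Rps25 and Rps27a. For each of the 12, ILCP_WT had the lowest mean. The count ran from 2 without either ILCP_WT library to 18 without cEILP_WT 3. It was 3 without ALP_WT 2 or ALP_WT 3, 6 without cEILP_WT 2, and 7 without any 1 of the EILP_KO or sEILP_WT libraries.

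The members followed one another from library to library, which is a description over libraries that share groups and normalization. The median Pearson correlation between members over the 15 libraries was 0.80, and the lowest between any pair without Rpl24 was 0.17. Rps23 (0.98), Rps20 (0.97), Rpl37 (0.97) and Rps9 (0.97) were closest to the mean of the other members, and Rps27 (0.65), Rpl38 (0.67) and Rpl29 (0.69) were the farthest after Rpl24. When each library was shifted so that the members' mean was equal in all libraries, 0 members were called in any comparison by limma. In ILCP_WT against ALP_WT, 6 members then had an unadjusted p under 0.05, and the median of all tested genes moved to 0.70. On that scale Rps25 had the lowest adjusted p, 0.0617, with an estimate of -0.53 (SE 0.18), and Rpl21, for a 60S protein, was at 0.42 (SE 0.17). In ILCP_WT against EILP_WT, the lowest adjusted p was that of Rps27, 0.11, with an estimate of 0.55 (SE 0.19).

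A few members varied little over the stages. The narrowest ranges of the 6 group means were 0.38 for Rpl21, 0.46 for Rpl8, 0.48 for Rpl29 and 0.51 for Rpl6. The widest after Rpl24 was 1.31 for Rps25, and among the next were 1.24 for Rps20 and 1.22 for Rpl35a. Rps27, for the zinc-binding protein eS27, was 7.47, 7.86 and 7.43 in ALP_WT, 7.14 and 6.94 in EILP_KO, 7.09, 6.85 and 7.26 in EILP_WT, 7.16 and 7.34 for sEILP_WT, 7.38, 7.29 and 6.77 in cEILP_WT, and 6.93 and 7.23 in ILCP_WT. Its ILCP_WT libraries overlapped with those of each early progenitor group, and the estimate for ILCP_WT against EILP_WT was 0.018 (SE 0.24). Rpl38, which in mouse embryos is needed for translation of Hox mRNAs, was 5.71 and 6.45 in ILCP_WT against 6.35, 6.71 and 6.64 in ALP_WT, an overlap set by ILCP_WT 2.

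Rpl24 stood apart from the other 75 members. Its log2 values were 0.24, -2.43 and -4.14 in ALP_WT, 0.09 and -1.11 in EILP_KO, -0.72, -0.99 and 1.66 in EILP_WT, -1.28 and -0.14 for sEILP_WT, -1.57, -2.70 and -3.35 in cEILP_WT, and -0.07 and 0.53 in ILCP_WT. The cEILP_WT libraries lay below those of EILP_KO, EILP_WT, sEILP_WT and ILCP_WT, and the 3 ALP_WT libraries spread over most of the range. The correlation with the mean of the other members was -0.31. None of its estimates passed the test, with SE from 1.54 to 1.81 log2 units over the 7 comparisons. The genes most like it over the 15 libraries were Rps26-ps1 (r = 0.95), Gm6169 (0.94), Gm11793 (0.93), Gm12355 (0.91) and Gm9774 (0.89). The row Gm9385, annotated in GENCODE M21 as a processed pseudogene and 99.8% identical over 69.7% of an Rpl24 transcript, averaged 0.62 on the same scale. Reads of the gene and such a copy could have been split, which was not tested, so the Rpl24 values are uncertain. Rpl24 itself averaged -1.07, and both rows lay far below the member medians of the libraries, 7.15 to 8.20.

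Over the 6 group means the genes most like Rpl24 were Emc9 and Pcx (r = 0.99 each), 6 points that say little. For Rps25, the member with the next widest range, the most like over 15 libraries were Wasf2 (r = 0.96), Rps19 (0.95), Ppih (0.95), Rpl35 (0.95) and Rps15 (0.95), of which 3 are members.

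**Figure D5:**
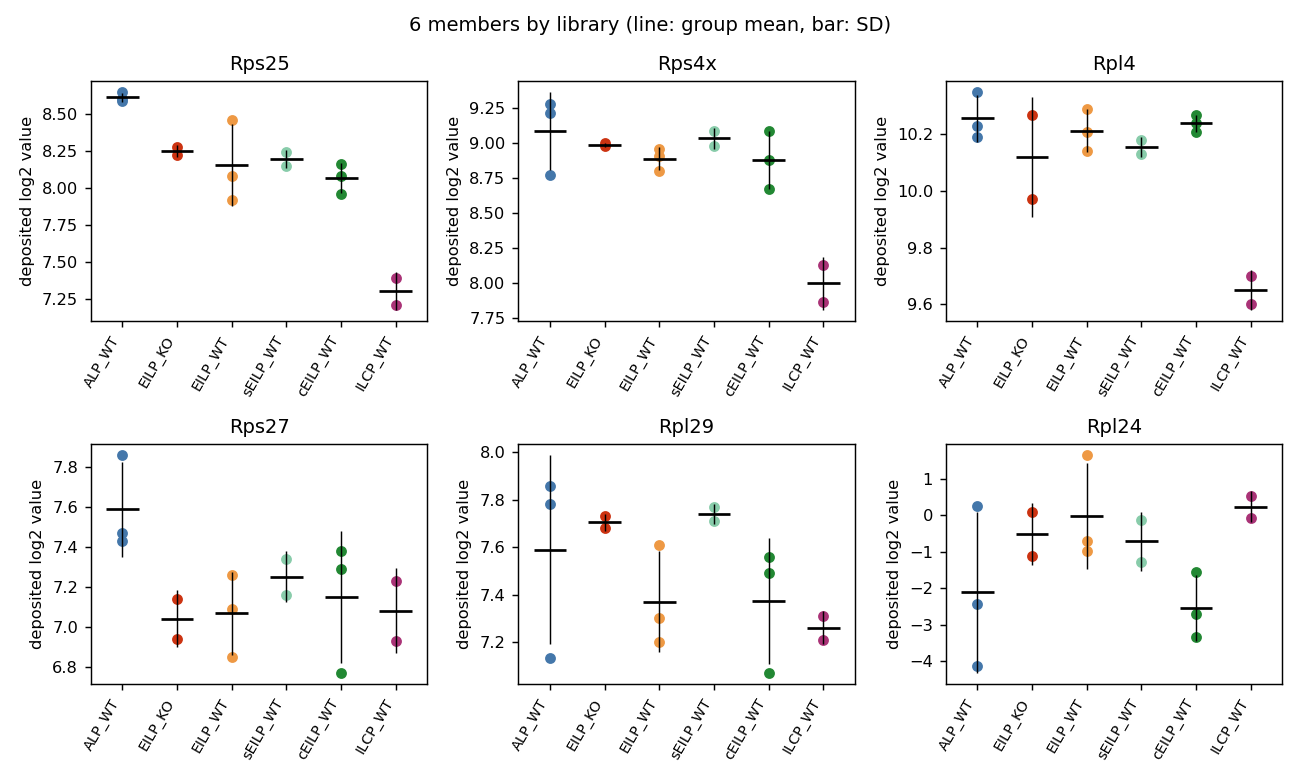
Deposited log2 values (y axis, different in each panel) of 6 members in each library (points) by group (x axis); horizontal lines are group means and vertical bars the SD (n = 2 or 3). The ILCP_WT points lie below all others for Rps25, Rps4x and Rpl4, lie among the early progenitors for Rps27 and Rpl29, and lie near 0 for Rpl24, whose libraries scatter from -4.14 to 1.66.

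Many members have near-identical copies in the mouse genome. Of the 76, 47 had another row of the table whose transcript was at least 95% identical over at least 50% of the member's transcript, 44 of them with a row named as a predicted gene or pseudogene, 55 such rows in all. On the deposited scale 54 of these rows had a lower mean than their member, and 2 lay within 3 log2 units of it, Gm9385 and Gm10076, which is near-identical to Rpl41 and averaged 6.35 beside its 7.58. With each member summed with its copies, an alternative chosen after seeing the data, 8 members were lower in ILCP_WT against EILP_WT, 11 against cEILP_WT and 51 against ALP_WT. The 76 genes lie on 19 chromosomes, 14 of them on chromosome 7 and 4 on chromosome X.

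Transcript length was read beside the result, as the longest GENCODE M21 transcript annotated for each gene. That transcript need not be the one measured. In ILCP_WT against ALP_WT, 820 other genes with transcripts under 1000 bases had a median of 0.19 with 6.10% called lower, while the 32 members of that length had a median of -0.88 and the 44 longer members -0.81. Members with and without a pyrimidine run within 5 bases of the annotated start had close medians, a difference that was not tested. The median was -0.80 over the 27 members with that run, 17 of them lower. It was -0.84 over the 29 without it, 21 of them lower. The 29 can include members whose run lies farther from the annotated start. The split therefore does not separate members with a TOP tract from members without 1.

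Genes of the same machinery with irregular symbols were read beside the members. Rps3a1 (eS1) was 9.12 and 9.14 in ILCP_WT against 9.69, 9.97 and 9.91 in ALP_WT, and fell by 0.73 (SE 0.21, limma adjusted p = 0.040). Fau, which encodes eS30 fused to a ubiquitin-like domain, had an estimate of -0.76 (SE 0.25, adjusted p = 0.062). Of 9 paralogs of ribosomal proteins outside the pattern 5 were in the table, and 2 fell in ILCP_WT against ALP_WT, Rps27l by 1.05 (SE 0.19) and Rpl36al by 0.81 (SE 0.18). Rpl22l1 (-1.16, SE 0.43), Rpl7l1 (-0.33, SE 0.20) and Rps4l (-1.11, SE 1.56) were not called. Rps27l was 6.29 and 6.40 in ILCP_WT against 7.32, 7.47 and 7.40 in ALP_WT, where its paralog Rps27 had the estimate of -0.50 (SE 0.24).

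Factors that build ribosomes and transcribe their RNA were read from 2 lists. Of 63 nucleolar and assembly genes, 13 were lower and 0 higher in ILCP_WT against ALP_WT (background 7.86% called lower and 5.56% called higher), and 54 had estimates below 0, with a median of -0.63 against -0.087 over all tested genes. Against EILP_WT 7 were lower (median -0.49, background 4.34% called lower), and against cEILP_WT 11 (median -0.64, background 4.72%). Gnl3, nucleostemin, was 4.95 and 5.53 in ILCP_WT against 7.85, 6.56 and 7.34 in ALP_WT, an estimate of -2.0 (SE 0.36). Npm1, the nucleolar chaperone nucleophosmin, fell by 1.12 (SE 0.21) and Nop10, of the pseudouridine-guiding particles, by 1.12 (SE 0.17). In the other 4 comparisons 0 of the 63 were called by limma. Of 30 genes of RNA polymerases I and III and their factors, 1 was lower and 1, Polr3f, was higher in ILCP_WT against ALP_WT, Polr3f by 1.95 (SE 0.53). These counts are below the 7.86% and 5.56% of all tested genes called lower and higher, and the median of the 30 was -0.72. Polr1b fell by 1.84 (SE 0.39) in ILCP_WT against cEILP_WT.

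Of 21 measured TOP genes that are not ribosomal proteins, 7 were lower and 1, Ccng1, was higher in ILCP_WT against ALP_WT (background 7.86% called lower and 5.56% called higher), with a median of -0.58. Hnrnpa1, a splicing factor, was 7.71 and 7.38 in ILCP_WT against 9.31, 9.06 and 9.08 in ALP_WT, an estimate of -1.61 (SE 0.16), and Pabpc1, the poly(A)-binding protein, fell by 1.16 (SE 0.19). Gnb2l1, for the 40S-bound scaffold Rack1, fell by 0.80 (SE 0.17). Against EILP_WT 4 were lower (background 4.34%) and against cEILP_WT 5 (background 4.72%), and Vim, for the filament protein vimentin, was higher in both, by 1.57 (SE 0.42) and 2.13 (SE 0.42). Npm1 is also on the list of nucleolar and assembly genes. It is counted among the lower genes of both lists in each ILCP_WT comparison.

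Of 25 regulators of ribosomal protein mRNAs and growth, the Myc genes were the ones called most often. Myc was 9.15, 8.91 and 9.07 in ALP_WT, 7.58 and 8.56 in EILP_KO, 7.89, 7.90 and 7.60 in EILP_WT, 8.78 and 8.57 for sEILP_WT, 8.33, 8.87 and 8.78 in cEILP_WT, and 6.36 and 6.69 in ILCP_WT. It was lowest in ILCP_WT, by 2.49 below ALP_WT (SE 0.26) and by 1.30 below EILP_WT (SE 0.26). In EILP_WT against ALP_WT, where 0 members were called, Myc had an estimate of -1.19 (SE 0.24, limma adjusted p = 0.018). Myc averaged 7.80 in EILP_WT, 8.67 in sEILP_WT and 8.66 in cEILP_WT, where the mean member medians were 7.75, 7.71 and 7.64. Neither Myc nor Mycn followed the members through all groups. Mycn was 1.12 higher in ILCP_WT than in ALP_WT (SE 0.30), 1.59 lower than in EILP_WT (SE 0.30), and 2.71 higher in EILP_WT than in ALP_WT (SE 0.28). Foxo1 was 4.19 higher in ILCP_WT than in EILP_WT (SE 0.78), and Eif4e, the cap-binding factor, was 0.74 lower than in cEILP_WT (SE 0.20). Mtor, Larp1 and the remaining regulators were not called in any comparison, and in EILP_KO against EILP_WT 0 genes of these lists were called.

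Markers of other cells were read beside the ILCP_WT result, as summed antilog levels. The 3 natural killer markers (Ncr1, Prf1, Klrb1c) summed to 111 to 193 in ILCP_WT and 2.66 to 22.5 in ALP_WT, and 3 measured T cell markers to 21.5 to 25.2 in ILCP_WT and 0.106 to 0.124 in ALP_WT. The natural killer sum was 0.124 to 120 in EILP_WT, which overlaps with ILCP_WT, and 0.106 to 1.46 in cEILP_WT. The T cell sum was 0.124 to 16.1 in EILP_WT and 1.07 to 11.5 in cEILP_WT. The 5 erythroid markers summed to 8.83 to 119.8 in ILCP_WT and 3.99 to 129.8 in ALP_WT, and 4 neutrophil and monocyte markers to 39.2 to 133 in ILCP_WT and 262 to 366 in ALP_WT. The gate genes Thy1 and Il7r of ILCP_WT, summed with Id2 and Gata3, ILC transcription factors outside the gate, were at 4111 to 5389 in ILCP_WT and 255 to 541 in ALP_WT. The 4 genes of the ALP_WT gate (Flt3, Il7r, Kit, Cd244), of which Il7r is in both gates, summed to 2034 to 2456 in ILCP_WT and 2069 to 2981 in ALP_WT, so that sum did not separate the groups. Prf1 and Epor were at the lowest value in both ILCP_WT libraries, and Cd3e, Cd8b1 and Ncr1 in all ALP_WT libraries. Of 5 B cell markers only Ebf1 was in the table, at 0.0426 to 9.33 in ILCP_WT and 1.52 to 22.1 in ALP_WT. The part of these differences in the members' values was not tested.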

How the data were processed

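Per the labels, total RNA was extracted with RNeasy plus micro columns and libraries were made with the SMARTer ultra low input and Nextera XT kits. These kits do not mark strand, so antisense partners cannot be told apart. The tools bcl2fastq 2.17, STAR 2.5.2b and RSEM 1.2.23, limma (version not given) and the build mm10 (GRCm38) are listed in the submitters' processing notes, without their settings; the gene annotation is not given in the sources used here. The authors deposited log2 values per gene, which the values themselves show to be quantile-normalized; 24 unnamed columns were not used. Quantile normalization gives each library the same distribution, so values are relative to all other genes.

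A gene was tested if 2 or more libraries had it at a log2 value of 0 or above. A single limma model (3.58.1, R 4.3.3) with group and batch (9 libraries in batch 1, 6 in batch 2) and an intensity trend was fitted to all 15 libraries. The batch term itself was called for 0 genes. The Benjamini-Hochberg adjustment ran over all tested genes in each of 7 comparisons. The fit was tested on simulated data in which each gene varied independently of the others. That simulation does not cover counts over members that move together. Alternatives changed the filter, the batch term, the trend, the normalization, library weights, a pseudocount of 1 and the libraries used. Copies were found with blastn 2.17.0 against GENCODE M21 transcripts, promoters come from RefSeq (GRCm38.p6), and gene coordinates come from GENCODE M21. Named members are those called anywhere, the 3 highest and 3 lowest estimates per comparison, and the 5 widest and 5 narrowest ranges; others named were chosen after their values were seen, and some genes that the rule names are not reported here. The members and lists were chosen with earlier results of these data known, so their direction is not independent evidence.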

Additional observations from a re-analysis of the deposited data

How the results depend on the processing

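Counts of members called lower moved with the processing, while the medians kept their sign in the ILCP_WT comparisons except as given here. With cyclic loess the medians were nearer 0. They were -0.353 against EILP_WT (main fit -0.515), -0.338 against cEILP_WT (main fit -0.509) and -0.677 against ALP_WT (main fit -0.832). Against EILP_WT (8), the count was 0 without the intensity trend, 2 with cyclic loess, 1 with array weights, 0 in batch 1 alone, 0 with the 2 groups alone and 27 without EILP_WT 2 and cEILP_WT 3. Against cEILP_WT (14), it was 0, 2, 4, 9, 0 and 23 under the same settings, with a median of -0.693 without the 2 libraries. Against ALP_WT (52), it was 22 without the trend, 34 with cyclic loess, 4 in batch 1 alone and 1 with the 2 groups alone. For the F test (12), it was 0 without the trend, 4 with cyclic loess, 4 with array weights and 0 in batch 1 alone. Leaving out 1 library at a time gave 0 to 2 members in EILP_WT against ALP_WT (medians -0.428 to -0.178), 4 to 17 in ILCP_WT against EILP_WT, 3 to 25 against cEILP_WT (medians -0.721 to -0.420), 21 to 49 against ALP_WT and 2 to 18 by the F test. In the same fits the median was -0.416 to -0.156 in sEILP_WT against ALP_WT, -0.160 to 0.054 in cEILP_WT against sEILP_WT and -0.003 to 0.202 in EILP_KO against EILP_WT. Smaller fits have fewer libraries from which to estimate the spread; for the other settings the cause was not tested.

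Same-numbered libraries did not deviate together (correlations -0.065 to 0.069 over 15 pairs). Deviations from means of so few libraries are not independent, so these correlations cannot show whether same-numbered libraries share an origin. With a replicate block in place of batch, 6 members were lower in ILCP_WT against cEILP_WT, and the counts of the other comparisons stayed within 1.5 times.

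With the members' mean made equal in all libraries, 0 members were called in each ILCP_WT comparison and by the F test. That scale fixes the members' mean, so medians near 0 follow from it. The medians became -0.051 (EILP_WT against ALP_WT), -0.020 (sEILP_WT against ALP_WT), 0.019, -0.032 and -0.047 (ILCP_WT against EILP_WT, cEILP_WT and ALP_WT). In ILCP_WT against ALP_WT, 12 called members then turned positive, among them Rpl11 0.017, Rpl13 0.13, Rpl13a 0.065, Rpl17 0.074, Rpl18 0.137, Rpl19 0.278, Rpl27 0.064, Rpl31 0.132, Rpl4 0.195, Rpl5 0.057 and Rpl7 0.076.

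The other reversals are of estimates that were not called. Rpl24 was 0.254 with array weights, 0.948 in batch 1 alone, 0.005 summed with its copy and -0.980 to 1.088 leaving out 1 library in EILP_KO against EILP_WT. In batch 1 alone it was -1.093 in EILP_WT against ALP_WT, -0.952 in sEILP_WT against ALP_WT (also -0.952 with the 2 groups alone) and -0.309 in ILCP_WT against ALP_WT. In ILCP_WT against EILP_WT it was -0.037 with the 2 groups alone, -0.242 without EILP_WT 2 and cEILP_WT 3, and -0.333 to 1.826 leaving out 1 library. Rpl17 in EILP_WT against ALP_WT was -0.033 without the batch term, -0.033 with the replicate block, -0.038 with array weights and -0.032 to 0.133 leaving out 1 library. Rpl29 in sEILP_WT against ALP_WT was -0.255 to 0.270 leaving out 1 library. Rps27 in ILCP_WT against EILP_WT was -0.038 with the replicate block, -0.036 in batch 1 alone, -0.032 with the 2 groups alone, -0.092 without EILP_WT 2 and cEILP_WT 3, and -0.155 to 0.211 leaving out 1 library. Of 1332 values of the 74 called pairs of member and comparison under the alternatives, 806 stayed called in the same direction, 514 kept the direction but not the call, and 12 reversed. Depth is unknown, and groups of 2 or 3 libraries limit the precision.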
